A study of Mus musculus with 9 samples.

Results

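Liver macrophages from mice fed a high-fat diet (HFD) and treated with diphenyleneiodonium (DPI) were compared with those from mice fed a normal diet (ND). Members were the libraries labelled as DPI-treated HFD (4) and as ND (2), so 6 of the 9 libraries entered the comparison and the 3 libraries from vehicle-treated HFD mice did not. The comparison asks which differences linked to the diet are present in mice that also received DPI. Male C57BL/6 mice began the diets when 5 weeks old and stayed on them for 8 weeks, the ND holding 10 kcal% fat and the HFD 60 kcal% fat. DPI was injected intraperitoneally at 2 mg/kg every 5 days from week 3, in a PEG3000 vehicle. The labels give no treatment for the ND mice, so that the diet, DPI and the injections cannot be told apart here. The protocol in the labels instead describes purified Kupffer cells (KCs) given 500 nM DPI for 24 h, and the dosing of living mice in the methods was followed. Cells were sorted from the liver as F4/80+CD11b+ per the labels, to which the methods add Gr1low, Gr-1 being an antigen that neutrophils carry at a high level. The labels number a mouse for each library, but the study describes more mice per group than there are libraries here, so whether a library is a single mouse or a pool is not settled by the sources used here, and the SDs and n below are over libraries.

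KCs live in the liver sinusoids as macrophages of the tissue, and monocytes that enter the liver can take their place. They clear particles and microbes from portal blood, present antigens on MHC molecules and store and export lipid. DPI inhibits NADPH oxidases and other flavoenzymes and is used in this study as an agonist of GPR3, a receptor that raises cyclic AMP and recruits β-arrestin. Obesity is known to bring lipid-laden macrophages into liver and fat, with lipoprotein lipase and scavenger receptors among their genes.

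Total counts were 4666522 and 4801564 in the ND libraries and between 3534325 and 15585775 with DPI (median 7298250.5), and the ribosomal RNA precursor Rn45s took 27.7% to 42.6% of them. The rank correlation across genes was 0.81 between the ND libraries and 0.884 to 0.909 between DPI libraries. ND replicate 1 stood farther from the DPI libraries (0.821 to 0.833) than ND replicate 2 did (0.856 to 0.873). Levels are given as CPM, the count scaled to a common library total with TMM factors, and a floor of 3 counts, under which presence was not read, lay at 0.19 to 1.05 CPM. This floor and the intervals below cover counting error only.

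The label was checked against markers. Of 17 general macrophage genes none passed the test, and Lyz2, the lysozyme gene, had 18292 and 25160 CPM in ND and 20929 to 44361 CPM with DPI. Emr1, the gene of F4/80 (now Adgre1), had 142 and 119 CPM in ND and 147, 77.0, 84.1 and 58.6 CPM with DPI (log2 fold change -0.51, standard error 0.39). Itgam, the gene of CD11b, had 277 and 152 CPM in ND and 148, 96.0, 120 and 153 CPM with DPI (-0.73, standard error 0.34). The groups overlapped for all 3 genes, and Itgam was the 1 gene of this list that fell when ND replicate 2 was left out.

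The genes that define KCs were at or near 0 in several libraries of both groups. Clec4f, a lectin found on KCs, had 0 and 244 counts in ND and 219, 6, 4 and 6 counts with DPI. Timd4, a receptor for dying cells, had 0 and 28 counts in ND and 1, 0, 0 and 1 with DPI, and Vsig4, a complement receptor, had 4 and 1 in ND and 49, 5, 0 and 0 with DPI. Folr2 and Marco were at 0 in both ND libraries, and DPI replicates 2 and 3 held no count of either. The cells are therefore called sorted liver macrophages. Of the 12 tested KC genes, Id3 passed the test, where 5.28% of all genes passed it as higher. Id3 had 224 and 141 CPM in ND and 201, 422, 546 and 498 CPM with DPI (log2 fold change 1.19, standard error 0.43), and DPI replicate 1 lay between the ND libraries. It did not pass without ND replicate 2 (0.92) or DPI replicate 3 (1.03), and 4 other KC genes rose without ND replicate 2 and 2 fell without ND replicate 1.

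A gene is said to have risen or fallen where it passed the study's own threshold, an unadjusted p under 0.05 from edgeR with at least a 2-fold difference. Of 11017 genes tested with edgeR's quasi-likelihood test, 582 rose (5.28%) and 309 fell (2.8%) in DPI-treated HFD mice relative to ND, 8.09% in all. An unadjusted p under 0.05 was found for 1010 genes (9.17%), where 551 are expected with no difference. No gene had an adjusted p under 0.05 after Benjamini-Hochberg adjustment of that edgeR test, the smallest being 0.217 and the largest of a gene that rose or fell 0.545. DESeq2, edgeR's likelihood ratio test and its exact test gave 227, 170 and 92 genes at that adjusted threshold. Leaving out ND replicate 2 gave 1753 genes higher, 796 lower and 408 with an adjusted p under 0.05, and then ND replicate 1 alone stood for its group. List counts given without that library stand beside 14.6% of all genes higher and 6.64% lower, those without ND replicate 1 beside 7.12% and 2.69%, and those without a DPI library beside 3.78% to 4.49% and 1.92% to 2.48%.

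Many of the higher genes rested on absence in ND. Of the 582 genes that rose, 208 (35.7%) had 0 counts in both ND libraries, whereas 3 of the 309 that fell had 0 counts in all 4 DPI libraries. Restricting the test to genes with at least 10 counts in every library left 218 higher and 283 lower, so that 43.5% of the calls were then higher, against 65.3% before. Scaling by library size alone gave 448 higher and 536 lower (45.5% higher) and shifted the all-gene median log2 fold change, 0.04 with TMM, to -0.19, and directions below are relative to that median. The groups did not overlap for 501 of the genes that rose (4.55% of those tested) and 250 of those that fell (2.27%). In the plot of p against fold change the genes with 0 counts in both ND libraries lie at the far right, where the fitted fold change depends on the prior count and is no bound. Of the 278 tested genes at 0 in both ND libraries 208 rose, since such a gene passes the filter on low counts only through the DPI libraries, and for list members absent from ND the 5.28% of all genes is therefore no background.

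**Figure D1:**
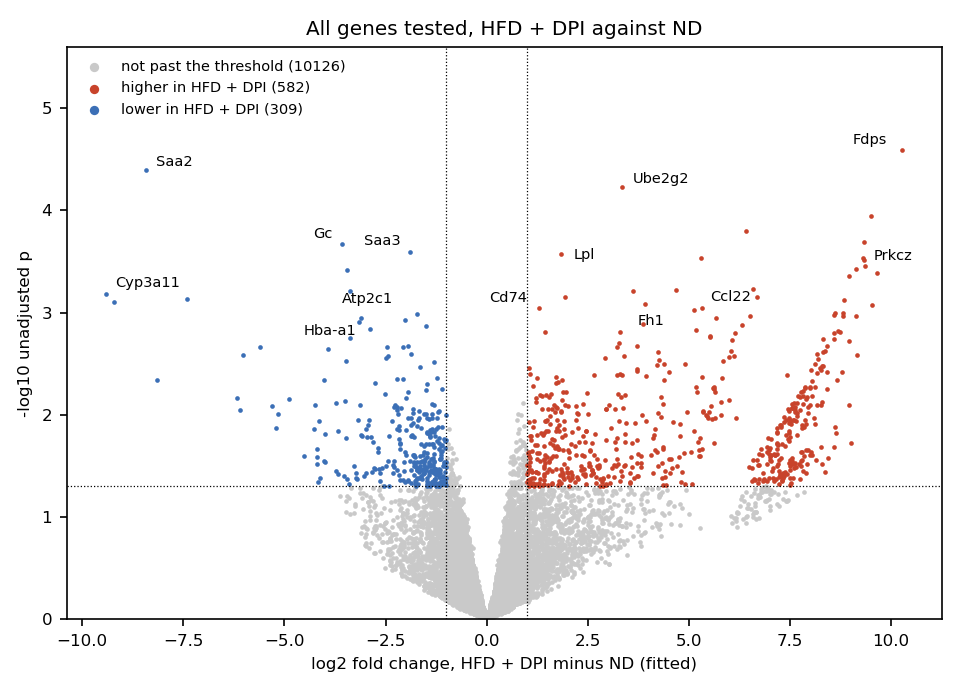
Each point is 1 of the 11017 genes tested, with the fitted log2 fold change (HFD + DPI minus ND) on the horizontal axis and -log10 of the unadjusted p on the vertical axis. Red points rose (582), blue points fell (309), dotted lines mark the threshold, and the band of red points at the far right is set apart from the rest.

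The 10 genes that rose with the smallest p were taken from those whose groups do not overlap, so that every DPI library lies above both ND libraries by that choice. Fdps, which encodes farnesyl diphosphate synthase of the cholesterol pathway (chr3:89093588-89101959, minus strand, GRCm38), had 0 counts in both ND libraries and 279, 41, 166 and 193 counts with DPI. These are 17.7, 14.4, 32.2 and 20.5 CPM, at least 37.2-fold higher than the floor of 3 counts per ND library. Ube2g2, a ubiquitin-conjugating enzyme of the pathway that degrades misfolded proteins from the endoplasmic reticulum (chr10:77622275-77645993, plus strand), was present in both groups. It had 8.37 and 3.49 CPM in ND and 69.9, 52.0, 65.9 and 54.7 CPM with DPI (log2 fold change 3.35, standard error 0.50). Lpl, the lipoprotein lipase gene (chr8:68880491-68907448, plus strand), had 22.1 and 23.3 CPM in ND and 77.9, 84.0, 83.1 and 78.6 CPM with DPI. Its means were 22.7 ± 0.80 CPM (SD, n = 2) and 80.9 ± 3.12 CPM (SD, n = 4) (log2 fold change 1.83, standard error 0.33). For Fdps, Ube2g2 and Lpl the call held in every alternative in which the gene was tested, with log2 fold changes of 1.60 to 1.96 for Lpl.

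The vehicle libraries were not used in the test and are given only beside it, since they share the ND libraries as their reference. On a scale set over all 9 libraries, Lpl had 121, 231 and 94.9 CPM with vehicle and Fdps 26.9, 22.7 and 29.0 CPM. Prkcz, the gene of the atypical protein kinase C zeta, differed in this respect. It had 0 counts in both ND libraries and 11.3, 12.3, 17.1 and 4.14 CPM with DPI (at least 19.7-fold higher), and 0.222, 3.26 and 1.49 CPM with vehicle.

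The other 6 genes had few or no counts in ND. Tdp1, a DNA repair phosphodiesterase, Fbxl4, a mitochondrial protein, Rrad, a small GTPase, and BC096441 had 0 counts in both ND libraries and were at least 21.9-, 19.2-, 19.6- and 19.1-fold higher. Tmem115 of the Golgi had 0 and 2 counts in ND and 232, 56, 80 and 201 with DPI, a pooled ratio of 90.2 with an exact 95% counting interval of 24.9 to 747. Bzw2 had 5 and 1 counts in ND and 502, 41, 174 and 104 with DPI (log2 fold change 5.29, standard error 0.97). Adjusted p-values of the 10 genes lay between 0.217 and 0.280 in edgeR's quasi-likelihood test, adjusted by Benjamini-Hochberg.

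**Figure D2:**
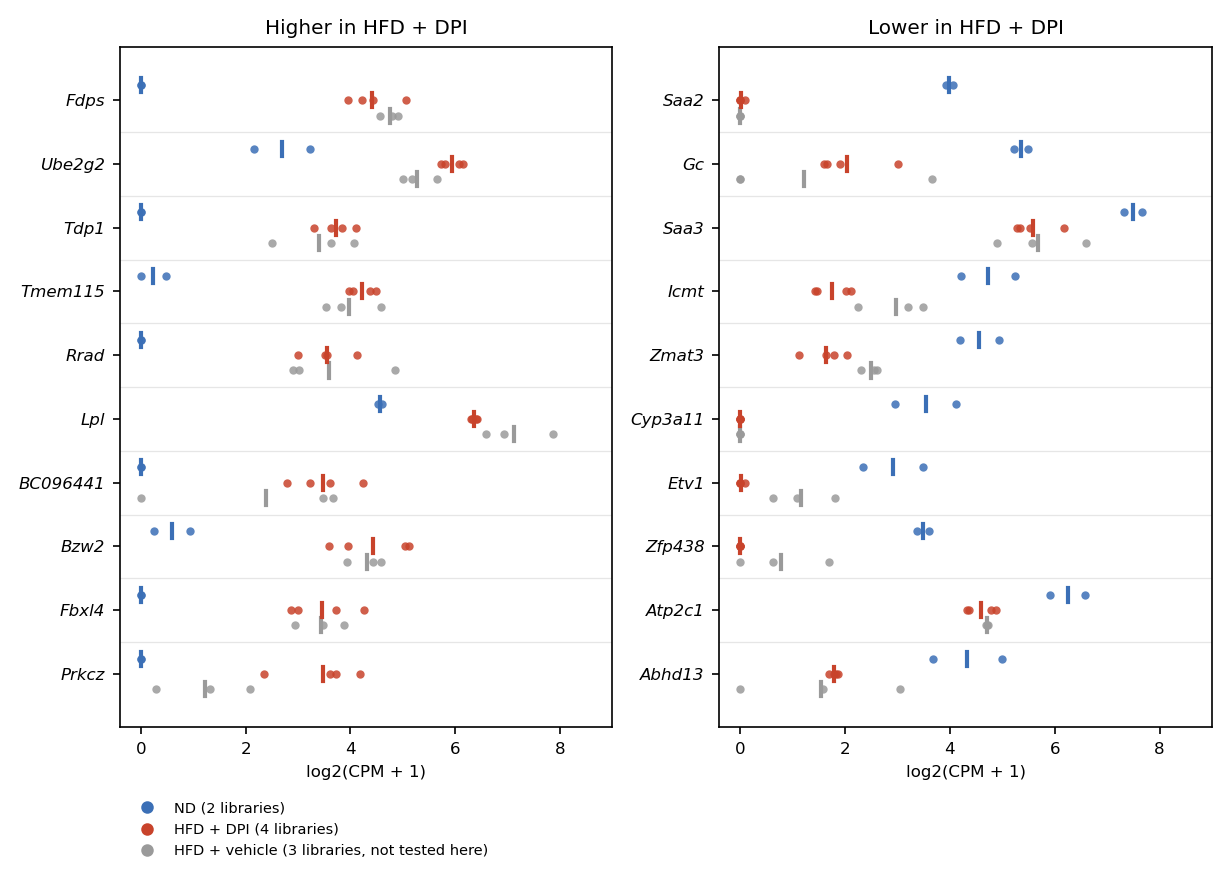
Log2(CPM + 1) on the horizontal axis for the 10 genes that rose (left) and the 10 that fell (right) with the smallest p, with 1 point per library and the group mean as a bar, ND in blue, HFD + DPI in red and the vehicle libraries in grey. The genes were chosen for groups that do not overlap, libraries without a count stand at 0, and Lpl stands at 22.1 and 23.3 CPM in ND and at 77.9 to 84.0 CPM with DPI.

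The 10 genes that fell with the smallest p, chosen by the same rule, included 3 for secreted proteins. Saa2, an acute phase apolipoprotein (chr7:46751790-46754313, plus strand), had 76 and 81 counts in ND and 1, 0, 0 and 0 with DPI, a pooled ratio of 495 (exact 95% counting interval 87.6 to 19677). The 3 vehicle libraries also had 0 counts. Saa3, the member of this family that macrophages and fat cells make, had 201 and 159 CPM in ND and 44.9, 71.4, 37.7 and 39.3 CPM with DPI (log2 fold change -1.90, standard error 0.34). Gc, the vitamin D binding protein of hepatocytes, had 36.5 and 43.8 CPM in ND and 2.03, 7.03, 2.14 and 2.76 CPM with DPI (-3.58, standard error 0.63).

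The Saa1 and Saa2 genes lie side by side on chromosome 7 and are close copies, so reads may have been split between them. Saa1 had 10.4 and 16.5 CPM in ND and 0.443, 0.703, 0 and 0 CPM with DPI. The 250 bases before each start are printed so that the likeness of the pair can be read, the longest shared run being 65 bases. They are RefSeq sequences of GRCm38.p6, 5′ to 3′ on the strand of the gene, for Saa1 chr7:46742981-46743230 (minus strand) and for Saa2 chr7:46751583-46751832 (plus strand). Capitals mark the letters TTNNGCAAT, a C/EBP-type motif searched on both strands, here on the reverse strand at bases 183 to 175 and 184 to 176 before the start. These letters were found in 1.93% of 32851 promoters and are a description, not a shown binding site.
Saa1: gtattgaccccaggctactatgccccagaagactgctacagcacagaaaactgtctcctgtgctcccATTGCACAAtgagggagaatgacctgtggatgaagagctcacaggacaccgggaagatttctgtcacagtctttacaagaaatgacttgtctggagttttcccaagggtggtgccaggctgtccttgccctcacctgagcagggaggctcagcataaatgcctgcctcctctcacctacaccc
Saa2: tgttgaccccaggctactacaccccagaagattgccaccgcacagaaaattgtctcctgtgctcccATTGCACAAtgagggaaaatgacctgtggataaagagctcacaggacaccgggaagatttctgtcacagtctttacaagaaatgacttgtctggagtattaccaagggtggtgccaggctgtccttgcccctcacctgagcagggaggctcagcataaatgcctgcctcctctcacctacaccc

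The remaining genes of this group that fell have varied roles. Cyp3a11, a drug-metabolizing cytochrome of hepatocytes, had 88 and 35 counts in ND and 0 in all DPI libraries (at least 21.6-fold lower), and Zfp438 had 60 and 48 counts in ND and 0 with DPI (at least 19.1-fold lower). Etv1, an ETS-family transcription factor, had 22 and 53 counts in ND and 1, 0, 0 and 0 with DPI (pooled ratio 236, exact 95% counting interval 41.2 to 9464). Atp2c1, the calcium pump of the Golgi, was well counted and had 94.5 and 59.3 CPM in ND and 18.9, 26.7, 28.6 and 19.6 CPM with DPI (log2 fold change -1.72, standard error 0.37). Icmt, which methylates prenylated proteins (log2 fold change -3.45, standard error 0.66), Zmat3, a p53 target (-3.38, standard error 0.69), and Abhd13 (-3.10, standard error 0.69) fell as well. The calls for Etv1 and Abhd13 were lost with the replicate number as a block, where 1 residual degree of freedom was left.

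Hepatocyte genes were common among those that fell. Of 27 tested, 11 fell and none rose, beside 2.8% of all genes, and their median log2 fold change was -2.21 against 0.04 for all genes. Alb, the albumin gene, had 57.3 and 112 CPM in ND and 20.3, 32.7, 12.4 and 17.7 CPM with DPI (log2 fold change -2.03, standard error 0.45). Serpina1c, an α1-antitrypsin gene with near-identical copies, had 26.0 and 84.9 CPM in ND and 6.27, 9.84, 7.58 and 1.48 CPM with DPI. Hpx, the haem scavenger haemopexin, had 10.4 and 48.7 CPM in ND and 0, 3.16, 0 and 1.38 CPM with DPI, and it did not pass without ND replicate 2 (-3.27). All DPI libraries were below both ND libraries for these genes, as for 14 of the 27 in all, beside 8.55% of all genes.

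The summed level of the hepatocyte genes was 588 and 857 CPM in ND, 320 to 447 CPM with DPI and 261 to 313 CPM with vehicle. The cells were sorted as macrophages, and in bulk RNA fewer cells of a type and less RNA per cell cannot be told apart. Among genes with at least 10 counts in every library, 4 of the 8 hepatocyte genes tested fell, beside 4.0% of all genes under that filter. Erythroid genes moved with a single library. Hba-a1, an α-globin gene with a near-identical copy, had 2678 and 393 CPM in ND and 381, 145, 101 and 206 CPM with DPI. Of 6 erythroid genes 4 fell, beside 2.8% of all genes, and none did without ND replicate 1.

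**Figure D3:**
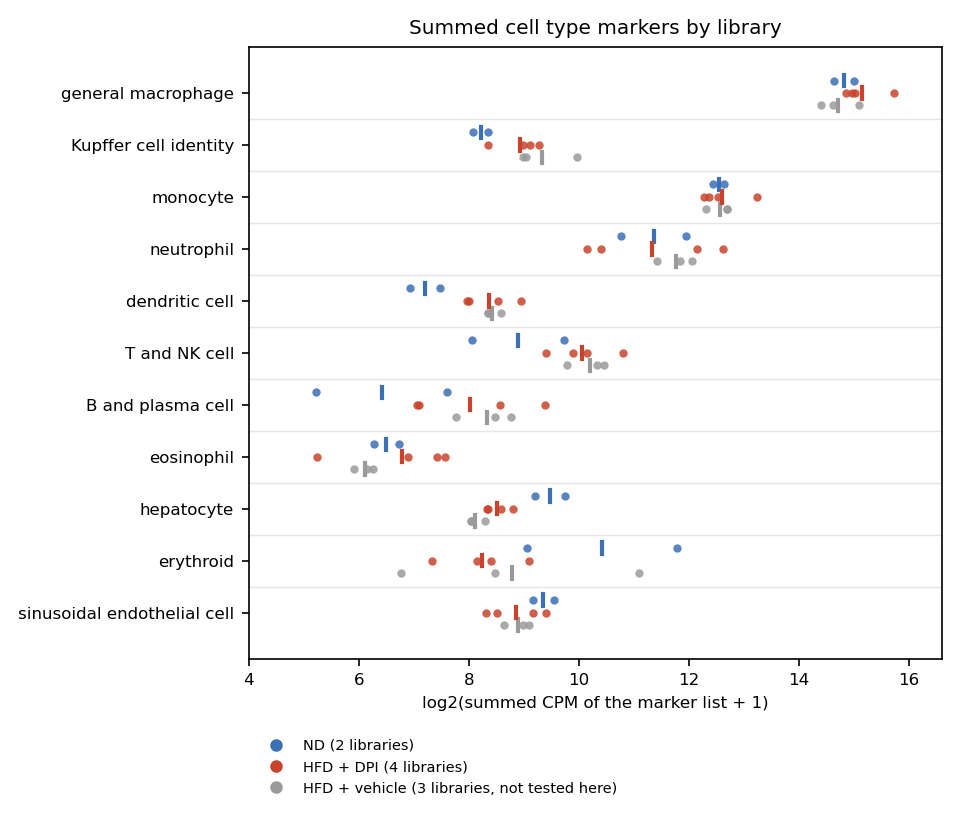
Log2(summed CPM + 1) of the marker genes of 11 cell types on the horizontal axis, with 1 point per library and the group mean as a bar, ND in blue, HFD + DPI in red and the vehicle libraries in grey. Hepatocyte sums are lower in all DPI libraries than in ND, dendritic cell sums are higher, and the neutrophil and T and NK cell sums overlap between the groups.

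Genes of MHC class II presentation were among those that rose. The chains encoded by H2-Aa and H2-Ab1 form a heterodimer that presents peptides to CD4+ T cells, and H2-Eb1 encodes another class II chain. Cd74 is the invariant chain and H2-DMb1 is a subunit of the chaperone that loads class II molecules. These 5 of 13 tested genes rose and none fell, beside 5.28% of all genes that rose, 12 of the 13 fold changes were positive and the median was 1.14. Cd74 had 1962 and 1989 CPM in ND and 3918, 6387, 4991 and 4043 CPM with DPI (log2 fold change 1.29, standard error 0.28). H2-Aa had 1088 and 879 CPM in ND and 1834, 3535, 3197 and 2123 CPM with DPI (1.44, standard error 0.33). H2-Ab1 had 1318 and 1567 CPM in ND and 2517, 5682, 3727 and 2364 CPM with DPI (1.31, standard error 0.38). For all 5 genes the DPI libraries lay above both ND libraries, and replicates 2 and 3 were the highest of them.

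H2-Eb1 had 777 and 519 CPM in ND and 1045, 2161, 1699 and 1144 CPM with DPI (log2 fold change 1.22, standard error 0.36). H2-DMb1 had 90.4 and 131 CPM in ND and 214, 270, 285 and 205 CPM with DPI (log2 fold change 1.14, standard error 0.32). Cd74 and H2-Aa kept their call in all 17 alternatives. H2-Ab1 lost it without DPI replicate 2 (1.00), H2-DMb1 with scaling by library size (0.91) and without ND replicate 1 (0.91), and H2-Eb1 with scaling by library size (0.95) and without ND replicate 2 (0.98). Ciita, the coactivator of this gene family, had 105 and 8.14 CPM in ND and 55.7, 82.3, 46.6 and 54.8 CPM with DPI, all DPI values lying between the ND values. Its log2 fold change ranged from -0.80 to 2.88 over the alternatives, the highest being without ND replicate 1.

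The summed class II level was 5658 and 5417 CPM in ND and 9957, 18568, 14370 and 10361 CPM with DPI, beside 8805 to 10525 CPM with vehicle. B cells and dendritic cells also make these molecules. Dendritic cell genes summed to 121 and 178 CPM in ND and 255, 248, 370 and 491 CPM with DPI, and B and plasma cell genes to 36.5 and 193 CPM in ND and 136, 133, 379 and 667 CPM with DPI. All DPI libraries lay above both ND libraries in the class II and dendritic cell sums, and the B cell sums overlapped. DPI replicate 2 had the highest class II sum, and its dendritic and B cell sums were the lowest with DPI by a narrow margin. The sort was for F4/80+CD11b+Gr1low cells, and the part of dendritic and B cells in the class II levels was not tested.

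**Figure D4:**
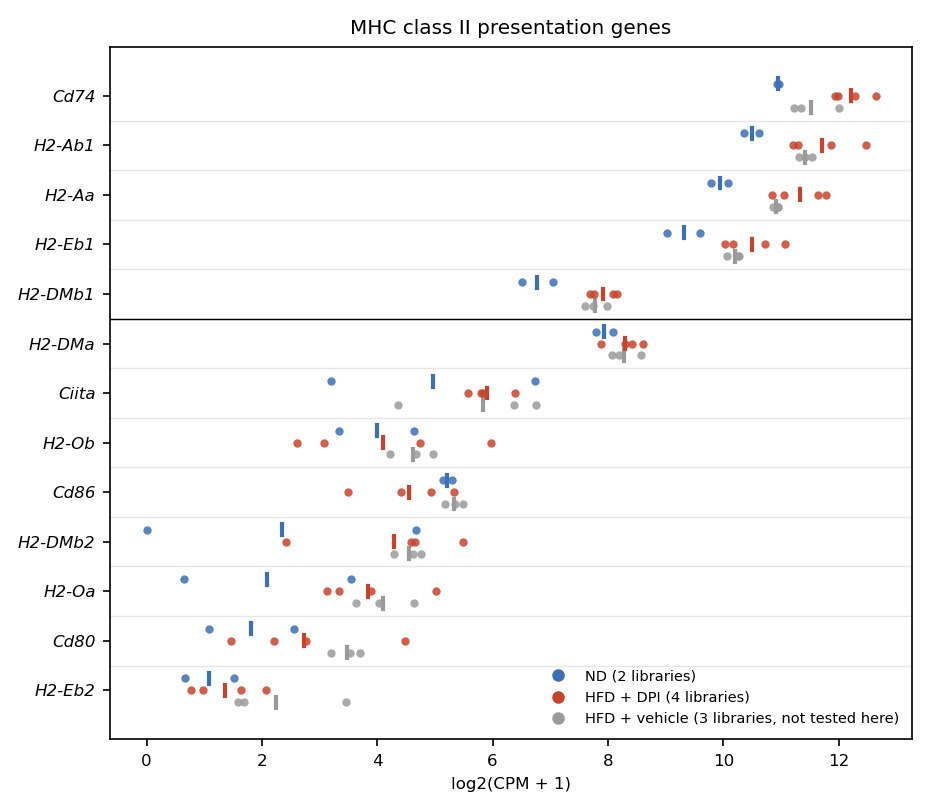
Log2(CPM + 1) of the 13 genes of the class II list on the horizontal axis, with 1 point per library and the group mean as a bar, the 5 that rose above the line. The 4 red DPI libraries lie to the right of both blue ND libraries for those 5 genes and overlap them for the genes below the line.

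Class II promoters carry an X box and an inverted CCAAT box, through which CIITA acts. Of the 13 genes 9 had a promoter in the RefSeq table of GRCm38.p6, and the 250 bases before the start of 3 that rose are shown so that these boxes can be read beside the values. H2-Aa lies at chr17:34287824-34288073 (minus strand), H2-Eb1 at chr17:34305617-34305866 (plus strand) and H2-DMb1 at chr17:34152941-34153190 (plus strand). Capitals mark the letters CCAAT (or ATTGG on the reverse strand), the X2 letters TGACGTCA and CTAGNAACTGATGATGCT, the longest stretch that H2-Eb1 and H2-DMb1 share with at most 1 mismatch, which holds the X box. All were searched on both strands, and the matches printed do not overlap. CCAAT was found in 8 of the 9 genes and in 33.8% of all 32851 promoters, and the X2 letters in H2-Aa and in 1.55%. The shared stretch, 94 to 77 bases before the start of H2-Eb1 and 97 to 80 before that of H2-DMb1, was found in these 2 of all promoters (0.00609%). The letters were chosen after these promoters had been read, and a match is a description and not a shown site.
H2-Aa: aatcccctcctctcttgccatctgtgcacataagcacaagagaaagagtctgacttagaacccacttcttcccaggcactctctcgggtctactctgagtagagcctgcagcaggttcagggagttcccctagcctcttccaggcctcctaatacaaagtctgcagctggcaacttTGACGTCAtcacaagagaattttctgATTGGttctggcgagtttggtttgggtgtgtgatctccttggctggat
H2-Eb1: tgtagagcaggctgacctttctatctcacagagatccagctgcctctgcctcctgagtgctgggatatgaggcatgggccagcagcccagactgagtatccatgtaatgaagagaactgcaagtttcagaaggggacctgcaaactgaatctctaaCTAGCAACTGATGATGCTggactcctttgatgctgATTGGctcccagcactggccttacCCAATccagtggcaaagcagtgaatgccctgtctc
H2-DMb1: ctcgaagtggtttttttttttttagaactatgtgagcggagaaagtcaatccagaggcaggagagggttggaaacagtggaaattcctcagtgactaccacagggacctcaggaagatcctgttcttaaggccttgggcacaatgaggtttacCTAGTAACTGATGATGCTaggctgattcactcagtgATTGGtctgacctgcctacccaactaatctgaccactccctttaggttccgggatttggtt

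MHC class I genes, which serve all nucleated cells, had smaller fold changes. Of 24 tested, H2-Q7, a gene with near-identical copies, rose, beside 5.28% of all genes, and 22 fold changes were positive with a median of 0.63. B2m, the light chain, had 2055 and 2412 CPM in ND and 4191, 5271, 3926 and 3183 CPM with DPI (log2 fold change 0.89, standard error 0.27) that did not reach 2-fold. H2-D1 had 1301 and 1733 CPM in ND and 2398, 2474, 2582 and 2761 CPM with DPI (0.75, standard error 0.24). The groups did not overlap for 7 of the 24 genes with DPI above, beside 11.8% of all genes. Without ND replicate 2, 9 of the 24 genes passed the threshold, and without DPI replicate 4, 3 did. H2-Q7 kept its call in 9 of 17 alternatives and, of the libraries left out, only without DPI replicate 4.

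Lipid genes moved in both directions. In the list of lipid-associated macrophage genes Lpl and Pld3 rose of 17 tested, beside 5.28% of all genes, with a median of 0.61 (6 rose without ND replicate 2). Pld3, a lysosomal phospholipase family member, had 19.3 and 12.8 CPM in ND and 32.5, 67.5, 38.7 and 39.0 CPM with DPI (1.46, standard error 0.47, and 1.22 without a call when ND replicate 2 was left out). Plin2, which coats lipid droplets, had 198 and 211 CPM in ND and 294, 261, 377 and 471 CPM with DPI (0.78, standard error 0.32), without overlap but under 2-fold. Trem2, the receptor that marks these cells, went the other way, with 49.5 and 39.9 CPM in ND and 34.4, 37.3, 13 and 28.3 CPM with DPI (-0.66, standard error 0.47), and did not pass. Abhd5, the coactivator of triglyceride lipase, was the member of the lipid droplet list (13 tested) that rose, beside 5.28% of all genes. It had 6.51 and 4.07 CPM in ND and 15.7 to 22.5 CPM with DPI (1.93, standard error 0.59). In that list 4 genes rose without ND replicate 2, without ND replicate 1, 2 rose and 1 fell, and without DPI replicate 4, 2 fell.

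Of 25 genes of cholesterol synthesis tested, Fdps and Dhcr7 rose and Sc4mol (now Msmo1) fell, beside 5.28% and 2.8% of all genes, and the median was 0.07. Sqle, the squalene epoxidase gene, had 1.67 and 9.89 CPM in ND and 0.848 to 3.69 CPM with DPI, and the groups overlapped. Of 18 targets of the oxysterol receptor LXR and efflux genes, Rxra, the partner receptor, fell (-1.87, standard error 0.82), beside 2.8% of all genes. Rxra did not pass without ND replicate 1 (-0.71) or without DPI replicates 1, 2 or 3 (-1.50, -2.06 and -1.75). Without ND replicate 2, 4 genes of cholesterol synthesis rose, and without DPI replicate 2, 1 did. Cyp51 and Nsdhl fell without ND replicate 1 (-1.83 and -2.50), and Cyp51, with 1 and 168 counts in ND, was among the 4 that rose without ND replicate 2 (5.51). Dhcr7 did not pass without ND replicate 1 or DPI replicate 2 (3.55 and 4.14), nor Sc4mol without ND replicate 1 or DPI replicates 2 or 4 (-1.0, -1.15 and -1.09).

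In fatty acid synthesis (17 tested) Elovl6, Acsl3, Fads1 and Scd1 rose and Fasn and Scd2 fell, beside 5.28% and 2.8% of all genes, Acsl3 and Fads1 having 0 counts in both ND libraries. Fasn, the fatty acid synthase gene, had 46.9 and 18.0 CPM in ND and 3.74, 8.44, 5.24 and 6.47 CPM with DPI (log2 fold change -2.46, standard error 0.60). Scd2, a stearoyl desaturase, had 17.5 and 19.0 CPM in ND and 2.23 to 7.38 CPM with DPI (-1.81, standard error 0.69). Scd1, its liver counterpart, had 1.30 and 0.388 CPM in ND and 0.443, 0.352, 16.7 and 77.9 CPM with DPI, so that its call rested on replicates 3 and 4, and it was at -1.09 with the replicate number as a block. Leaving out DPI replicate 3 or ND replicate 2 left no gene of this list that rose (14 and 17 tested), and leaving out ND replicate 1 or DPI replicate 4 left 1. Fads1 and Acsl3 did not pass without ND replicate 1 (7.31 and 7.26) or 2 (7.32 and 7.28), nor Elovl6 without ND replicate 2 (2.51) or DPI replicates 3 (3.20) or 4 (2.95). Ucp2, the mitochondrial uncoupling protein 2 gene, in the fatty acid oxidation list (2 of 21 tested rose, 7 without ND replicate 2 and 0 or 1 without a DPI library), had 947 and 1001 CPM in ND and 1690, 1632, 2408 and 2291 CPM with DPI (1.04, standard error 0.27). The DPI libraries were all above ND for Ucp2, which kept its call in 11 of the 17 alternatives and lost it without DPI replicates 3 (0.94) or 4 (1.00). Scd2 did not pass without ND replicate 2 (-1.73) or DPI replicate 1 (-1.75), nor Scd1 without either ND library (5.9 and 4.21).

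Pkm, the pyruvate kinase gene, had 564 and 811 CPM in ND and 930, 937, 790 and 694 CPM with DPI, overlapping (log2 fold change 0.29, standard error 0.28, unadjusted p = 0.325 in the edgeR fit). Of 21 glycolysis genes Ldhb rose (2.09, standard error 0.75), beside 5.28% of all genes, with 4.46 and 3.88 CPM in ND and 10.1 to 34.1 CPM with DPI, while Ldha overlapped. Pfkfb3 did not pass, with log2 fold changes of 0.33 to 1.67 over the alternatives, and stayed so in 10 of 17. Slc2a1, a glucose transporter gene, did not pass either, at -1.61 to -0.74, and stayed so in 13 of 17. In glycolysis 4 genes rose and 1 fell without ND replicate 2, and without DPI replicate 1, 2 rose. Of 24 genes of the TCA cycle Fh1, the fumarase gene, rose, beside the same share, with 3.35 and 0.970 CPM in ND and 63.3, 24.3, 27.8 and 16.9 CPM with DPI (3.93, standard error 0.83), and 3 of that list rose without ND replicate 2 and 2 without ND replicate 1. Of 77 genes of oxidative phosphorylation Ndufa8 and Ndufb9 of complex I rose, beside 5.28% of all genes, and the median was 0.13 (-0.11 with scaling by library size alone). Without ND replicate 2, 10 genes of oxidative phosphorylation rose, with 5 without DPI replicate 4 and 0 or 1 without each of the other libraries. Neither Ndufa8 nor Ndufb9 passed without ND replicate 1 (0.59 and 0.55) or DPI replicates 2 and 3, nor Ndufa8 without DPI replicate 1 (1.02), nor Ldhb without DPI replicate 2 (1.59).

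Cytosolic ribosomal protein genes showed a small difference of 1 sign. None of the 79 tested passed the threshold, all 79 fold changes were positive (75 with scaling by library size), and the median was 0.58. In 56 of them every DPI library lay above both ND libraries, beside 11.8% of all genes. Their sum was 72077 and 98453 CPM in ND and 113684, 146116, 137809 and 109515 CPM with DPI. When ND replicate 2 was left out, 17 passed. Many of these genes have near-identical copies in the genome. Of 34 proteasome genes Psmc6, Psmd11 and Psmd7 rose, beside 5.28% of all genes, and 8 rose without ND replicate 2. Psmd11 did not pass without ND replicate 2 (0.80) or DPI replicate 3 (0.95), nor Psmd7 without ND replicate 1 (0.78) or DPI replicates 1 (1.01) or 2 (1.06). Psmc6, an ATPase of the base, passed whichever library was left out, with 16.7 and 14.7 CPM in ND and 80.9, 43.6, 42.9 and 37.7 CPM with DPI (1.71, standard error 0.46).

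For the genes of the receptor itself the counts were low. Gpr3 had 19 and 0 counts in ND and 0, 0, 5 and 11 with DPI and was not tested, and a difference was not detectable at this depth. Arrb2, the β-arrestin 2 gene, had 69.6 and 28.9 CPM in ND and 38.3, 51.3, 66.8 and 35.8 CPM with DPI, between the ND values throughout (log2 fold change -0.04, standard error 0.45, unadjusted p = 0.935 in the edgeR fit). Of 17 tested genes of GPR3, arrestin and cyclic AMP signalling Arrb1, Adrbk1 and Grk5 fell, beside 2.8% of all genes. Arrb1, the β-arrestin 1 gene, had 83.5 and 25.8 CPM in ND and 25.1, 13.4, 21.2 and 11 CPM with DPI (-1.62, standard error 0.54). All 3 were higher in ND replicate 1 than in ND replicate 2, and none of the 17 genes fell without ND replicate 1, which left Arrb1 at -0.53, Adrbk1 at 0.17 and Grk5 at -0.61. Adrbk1 and Grk5 also did not pass without DPI replicates 1, 2 or 3, nor Adrbk1 without 4. In that list 4 genes fell and 3 rose without ND replicate 2.

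None of 8 tested NADPH oxidase genes and none of 21 antioxidant and iron genes passed. Without ND replicate 2, however, Fth1 (1.15), Slc40a1 (2.42) and Tfrc (9.14) of the latter list and Rac2 (1.10) of the former rose. Without ND replicate 1, 2 antioxidant and iron genes rose, and without DPI replicate 1, Fth1 did (1.06). Cybb, the catalytic subunit of the phagocyte oxidase, had 701 and 413 CPM in ND and 605, 389, 481 and 579 CPM with DPI. Fth1 and Ftl1, the ferritin chains, were under 2-fold without overlap, with Fth1 at 2724 and 3570 CPM in ND and 4072, 5298, 6523 and 7946 CPM with DPI (0.92, standard error 0.30). Of the 10 tested genes of AMP-activated protein kinase, Stk11, the upstream kinase LKB1, fell (-1.88, standard error 0.73), beside 2.8% of all genes, and it did not pass without ND replicate 1 (-0.73) or DPI replicates 1 (-1.71) or 3 (-1.62), whereas 2 genes of the list rose without ND replicate 1.

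Genes of lymphocytes were among those that rose. Of 22 T and NK cell genes 7 rose and none fell, beside 5.28% of all genes that rose, with a median of 1.22. Lck, a kinase of the T cell receptor, had 7.26 and 25 CPM in ND and 49.7, 84.7, 41.4 and 41.0 CPM with DPI (1.74, standard error 0.58). Skap1, its adaptor, had 3.16 and 1.36 CPM in ND and 12.5, 32.3, 28.6 and 12.6 CPM with DPI (3.23, standard error 0.79). The summed level was 264 and 852 CPM in ND and 677, 1783, 1133 and 944 CPM with DPI. ND replicate 1 was the low library, and without it 2 genes of this list rose and 1 fell, whereas 15 rose without ND replicate 2, 3 without DPI replicate 2 and 5 to 7 without any other DPI library. Lck did not pass without ND replicate 1 (1.12), and Skap1 passed in every case.

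B cell genes differed within the DPI group. Of 15 tested, Cd79b, Faim3, Blk and Pou2af1 rose, beside 5.28% of all genes, and the median was 1.76. Cd79b, a chain of the B cell receptor, had 7.07 and 3.88 CPM in ND and 23, 4.57, 42.7 and 98.3 CPM with DPI. DPI replicates 3 and 4 were high for all 4 genes, and without replicate 4 a count of 1 was left, and without replicate 3 a count of 2. Of 11 dendritic cell genes Ccl22 and Cd209a rose, beside 5.28% of all genes, with a median of 0.07. Ccl22, a chemokine that attracts regulatory T cells, had 0.558 and 0.194 CPM in ND and 6.46, 9.84, 33.4 and 13.5 CPM with DPI (5.32, standard error 1.14), and it kept its call in all 16 alternatives in which it was tested, whereas Cd209a did not pass without ND replicate 2 (1.31).

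Eosinophil granule genes were present in 3 DPI libraries. Prg2, the major basic protein gene, had 0 and 1 counts in ND and 1296, 265, 2 and 468 with DPI. Epx, the eosinophil peroxidase, had 0 CPM in ND and 9.56, 6.33, 0 and 10.7 CPM with DPI, and Ear1 and Ear6, ribonucleases with near-identical copies, followed the same libraries. DPI replicate 3 thus lacked them, and the vehicle libraries had 0 to 1.81 CPM of Prg2 and none of Epx. Of the 10 listed genes 7 had 0 counts in both ND libraries, and 7 of the 10 could be tested. Prg2, Epx, Ear1 and Ear6 passed the threshold, but they entered the test through the DPI libraries in which they are high, so their number is a description. Ear2 had 98.4 and 70.6 CPM in ND and 31.1 to 67.2 CPM with DPI (-0.85, standard error 0.38). Neutrophil genes, in a sort for Gr1low cells, overlapped in sum, at 1738 and 3970 CPM in ND and 1346, 1129, 4514 and 6270 CPM with DPI. Of 16 tested Mpo and Ltf rose and Prtn3 fell, beside 5.28% and 2.8% of all genes. The values of this list moved without ND replicate 2, to 11.1 for Elane, which did not pass with all libraries, and to -0.32 for Prtn3. Ear6 did not pass without either ND library (7.94 each) or DPI replicate 2 (7.72). Ltf and Prtn3 did not pass without ND replicate 2 (1.04 and -0.32) or DPI replicates 3 or 4, nor Ltf without ND replicate 1, nor Prtn3 without DPI replicate 2.

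Of 30 cytokine and chemokine genes Ccl22 rose and Cxcl1, a neutrophil attractant, fell, beside 8.09% of all genes that passed in either direction. Il1b, the interleukin 1β gene, had 210 and 755 CPM in ND and 202, 174, 652 and 1492 CPM with DPI, and Tnf had 47.4 and 7.76 CPM in ND and 35.9, 12.7, 36.7 and 47.5 CPM with DPI. Within the DPI group Il1b was low in replicates 1 and 2 and high in 3 and 4. Of 29 NF-kB genes Traf1 rose (2.54, standard error 1.02), beside 5.28% of all genes. Of 22 genes of endotoxin sensing Ticam1, the TRIF adaptor, and Tlr1 fell, beside 2.8% of all genes. Without ND replicate 1, 5 cytokine and chemokine genes rose, Tnf (2.11) among them, and without ND replicate 2, 4 did and 2 NF-kB genes fell. Without ND replicate 1 none of the genes Cxcl1 (-1.04), Traf1 (1.74), Ticam1 (-0.75) and Tlr1 (-0.94) passed, and each also did not pass without DPI replicate 3 and without at least 1 more DPI library.

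Of 36 type I interferon response genes Oas1g, Isg20 and Zbp1 rose, beside 5.28% of all genes, with a median of 0.40 that stayed positive at 0.18 with scaling by library size. Oas1g, a 2′-5′ oligoadenylate synthetase family gene with close copies, had 0 CPM in ND and 18.9, 14.4, 0.971 and 4.98 CPM with DPI (at least 17.2-fold higher). Isg20, an RNA exonuclease, had 5.39 and 11.6 CPM in ND and 26.3, 23.6, 25.6 and 45.4 CPM with DPI (1.83, standard error 0.57). Gbp5 and Tgtp1, GTPases induced by interferon γ, rose of 15 tested, beside the same share of all genes. Gbp5 had 0.372 and 0 CPM in ND and 10.3, 12.0, 9.32 and 6.36 CPM with DPI, a pooled ratio of 48.4 (exact 95% counting interval 13.3 to 401). Zbp1 and Tgtp1 did not pass without ND replicate 1 (0.64 and 2.76) or without DPI replicates 1, 2 or 3. Without ND replicate 2, 6 interferon genes rose and 2 fell, and 5 of the 15 GTPases rose, and without ND replicate 1, 6 interferon genes rose.

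In complement (15 tested) 3 genes fell and 1 rose, beside 2.8% and 5.28% of all genes. Serping1, the C1 inhibitor, had 2.79 and 6.98 CPM in ND and no counts in any DPI library, which is at least 9.11-fold lower. C4b, a component C4 gene, had 22.7 and 20.4 CPM in ND and 7.6, 10.5, 4.86 and 2.12 CPM with DPI (-1.79, standard error 0.70). Cfb, the factor B of the alternative pathway, had 24.9 and 6.21 CPM in ND and 54.7, 61.2, 38.1 and 28.7 CPM with DPI (1.55, standard error 0.61). Hepatocytes secrete these proteins too, and the hepatocyte sums above move with Serping1 and C4b, a link that was not tested. Of 20 genes of alternative activation Ccl22, Mgl2 and Clec10a rose, beside 5.28% of all genes, the latter pair being lectins. Of the 20 fold changes 13 were positive and 7 negative, with a median of 0.41. Retnla, another gene linked with this state, did not pass. Its log2 fold change was -3.96 without ND replicate 1 and -5.60 with the replicate number as a block. Mgl2 had 0 and 0.194 CPM in ND and 11.1, 8.44, 7.38 and 4.88 CPM with DPI, a pooled ratio of 89.7. Of the complement genes 5 fell and none rose without ND replicate 2, and without ND replicate 1 or DPI replicate 3, 1 fell. C4b did not pass without ND replicate 1 (-1.70) or DPI replicate 3 (-1.69), nor Cfb without ND replicate 2 (0.90) or DPI replicates 1 (1.45) or 2 (1.38). Clec10a passed in 5 of 17 alternatives and, of the libraries left out, only without DPI replicate 3.

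The other lists held between 0 and 3 calls each, where 5.28% of all genes rose and 2.8% fell. In the unfolded protein response (20 tested) Dnajc3, an endoplasmic reticulum cochaperone, rose, with 16 and 14.9 CPM in ND and 43.8, 26.7, 60.4 and 56.3 CPM with DPI (1.60, standard error 0.46), and without ND replicate 2, 5 genes of that list rose and 1 fell. In the lysosome list (38 tested) Manba and Galc, glycosidases, fell and Atp6v1h rose. Of 28 cell cycle genes (13 rose and 2 fell without ND replicate 2, and 1 rose without ND replicate 1 or DPI replicate 2) Nusap1, Aurka and Ccne1 rose, each from 0 counts in both ND libraries, so that they too entered the test through the DPI libraries, and Nusap1 was at 4.92 to 6.47 CPM with DPI (at least 9.58-fold higher). Jund was the immediate early gene (27 tested) that fell, and it did not without ND replicate 1 (-0.05) or DPI replicates 1 or 2, while 3 rose and 2 fell without ND replicate 2 and 3 fell without DPI replicate 4. No gene passed among 18 of heat shock, 16 of the circadian clock, 20 of efferocytosis, 14 of monocytes, 3 of platelets and 5 of stellate cells and cholangiocytes. Each of these lists held 1 to 4 calls when ND replicate 2 was left out, and the monocyte list 1 or 2 without DPI replicates 1, 2 or 4. Of 17 sinusoidal endothelial genes Pecam1 rose and Vwf, the von Willebrand factor gene, fell, with a median of -1.09, and Vwf did not pass without ND replicate 2 (-3.32), whereas 6 genes of the list fell without DPI replicate 1. In the lysosome list 7 genes rose and 3 fell without ND replicate 2. Galc and Atp6v1h did not pass without ND replicate 1 (-0.89 and 0.79) or DPI replicate 3, Galc also without 4 and Atp6v1h without 1. Aurka and Ccne1 did not pass without either ND library or DPI replicate 2, nor Ccne1 without 3 or 4. In the plot of all lists the class II genes have the highest median of the 31 pathway lists, and the hepatocyte genes have the lowest median of all 44 lists.

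Of the 93 different list members that rose or fell, 31 kept their call whichever library was left out, wherever they could be tested. Among them were Cd74, H2-Aa, Lpl, Fdps, Fasn, Fh1, Ccl22, Skap1, Isg20, Gbp5, Mgl2, Psmc6, Dnajc3, Abhd5, Alb, Saa1 and Saa2. The number that lost the call was 42 without ND replicate 1, 24 without ND replicate 2 and 22, 28, 29 and 15 without DPI replicates 1 to 4.

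**Figure D5:**
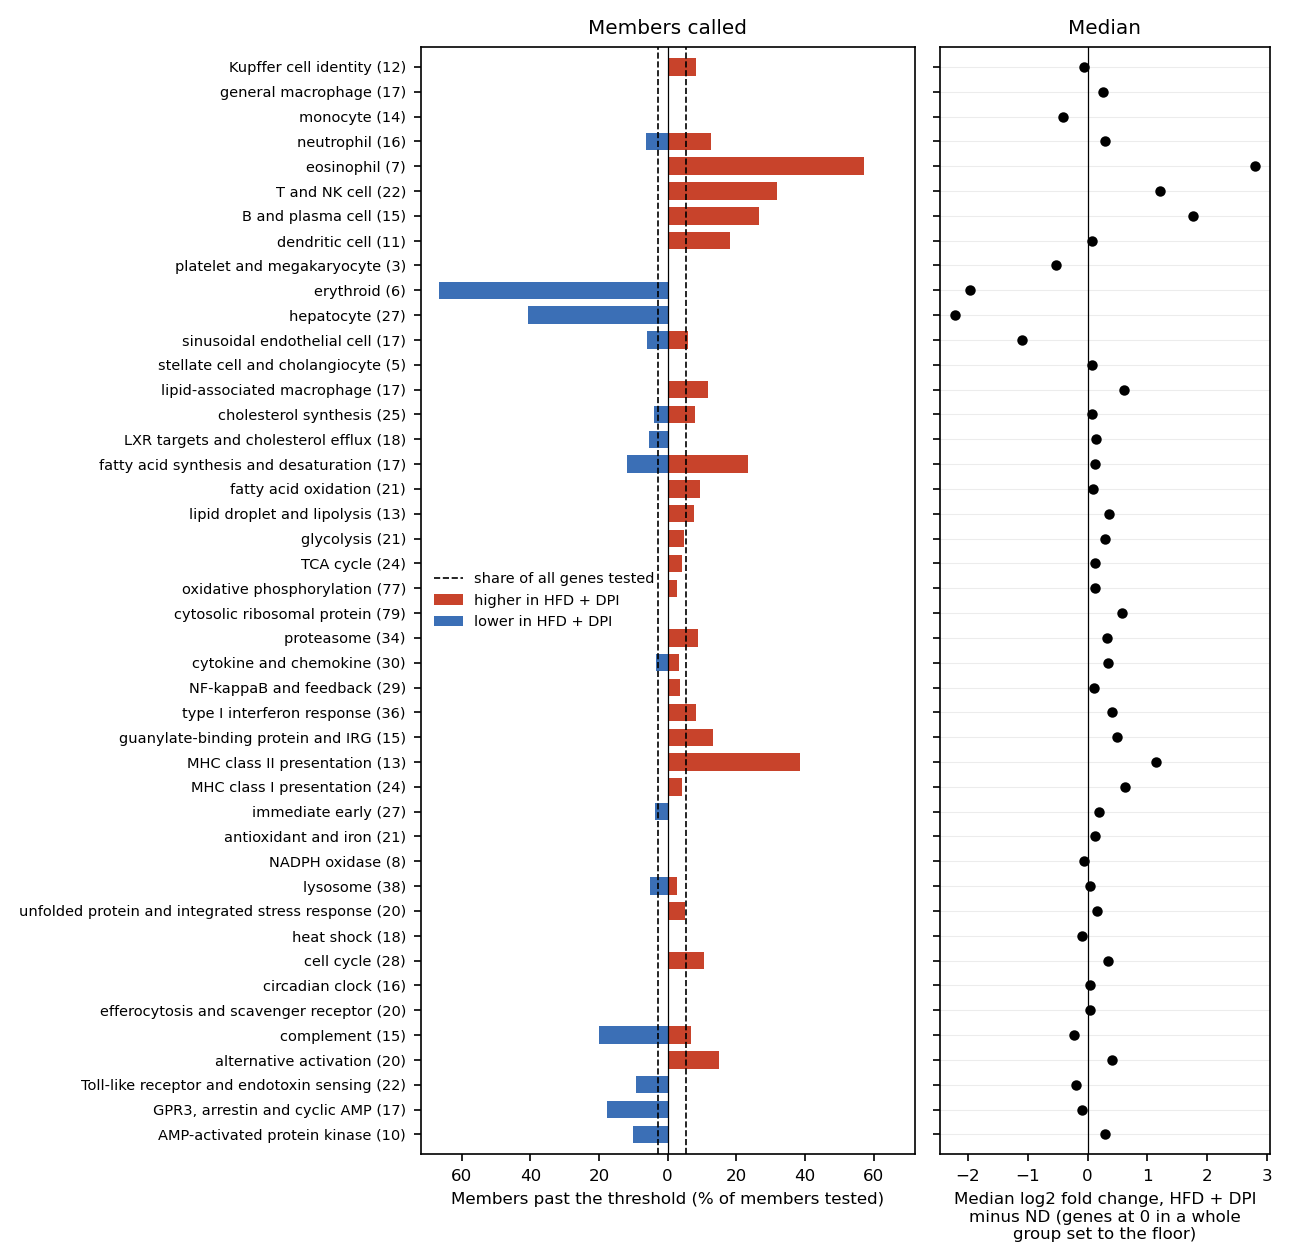
Left, the share of tested members of each of the 44 lists that rose (red) or fell (blue), in percent, with the number tested in parentheses and dashed lines at 5.28% and 2.8%, the shares of all genes. Right, the median log2 fold change of each list, with genes absent from a whole group set to the floor, with hepatocyte genes lowest at -2.21 and eosinophil genes at 2.79, a value that the filter on low counts largely set.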

How the data were processed

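RNA of F4/80+CD11b+Gr1low liver macrophages was sequenced. The authors aligned the reads to mm10 and deposited whole-number counts per gene for 23413 genes without normalization. The submitters' processing notes name TopHat2 and edgeR, and the methods bowtie2 and RSEM. Totals were 3534325 to 15585775 counts over the 6 libraries used, and every column of the table belonged to a mapped library.

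Groups came from the labels. The 6 libraries were fitted with edgeR 4.0.16 in R 4.3.3 (filterByExpr, TMM, glmQLFit, glmQLFTest), with Benjamini-Hochberg adjustment over 11017 genes. The threshold was the study's, an unadjusted p under 0.05 and at least 2-fold, and no p-value is given for a list. The labels number a mouse for each library, but the study describes more mice per group, and p-values measure the spread between libraries. The step was run on simulated counts with known changes, at a dispersion (spread between libraries) of 0.05 and at the higher one fitted here. Recovery at the adjusted threshold was required only at 0.05, so this run does not show it at the spread of these data. Standard errors are the fold change divided by the root of F.

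The libraries compared and the 44 gene lists were chosen with earlier results of these data known. Named genes were, in each direction, the 10 of smallest p among non-overlapping genes past the threshold, up to 3 per list with the smallest p, and Gpr3, Arrb2, Pkm, Emr1, Itgam, Clec4f, Lpl and Fdps. Other list members that passed, and members that did not pass but mark a list, were named after their values were seen.

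Alternatives were scaling by RLE or by library size, all genes or those with at least 10 counts in every library, DESeq2 1.42.0, edgeR's likelihood ratio and exact tests, a fit of 3 groups, the replicate number as a block, no Rn45s, counts thinned to the smallest library, and each library left out in turn. Other tools were limma 3.58.1, Python 3.11.15, numpy 2.4.6, pandas 2.3.3, scipy 1.17.1 and matplotlib 3.10.9. Gene positions are from GENCODE M21 and promoters from RefSeq.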

Additional observations from a re-analysis of the deposited data

Results flagged for a closer look

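In 6 of 39 groups of 4 DPI libraries examined, 1 library stood far from the other 3 by Dixon's test at the 95% level, which chance alone gives in about 1 in 20 groups. The share of the range taken by the gap is given for each, and no cause was tested. Saa2 had 0.0633 CPM in DPI replicate 1 and 0 in the others (1), and Etv1 had the same values (1), each resting on 1 count. Gc was at 7.03 CPM in DPI replicate 2 against 2.03 to 2.76 CPM (0.854). Clec4f was at 13.9 CPM in DPI replicate 1 against 0.636 to 2.11 CPM (0.889). The summed general macrophage markers were 54577 CPM in DPI replicate 1, the deepest library, against 29614 to 33291 CPM (0.853). The summed stellate cell and cholangiocyte markers were 23.5 CPM in DPI replicate 3 against 39.0 to 40.4 CPM (0.917).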

How the results depend on the processing

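Beside the 582 genes higher and 309 lower (891 in all, none with an adjusted p under 0.05), counts moved by over 1.5 times as follows, and the cause was not tested unless the setting itself gives it. Genes with at least 10 counts in every library gave 218 higher and 283 lower (501) of 7068 tested. Scaling by library size gave 536 lower. DESeq2 gave 909 higher and 465 lower (1374), with 227 of them at an adjusted p under 0.05, against 170 with the likelihood ratio test, 92 with the exact test and 1 in the fit of 3 groups. Leaving out 1 library gave 606 to 2549 genes, 402 to 1753 higher and 204 to 796 lower, with 0 to 408 at the adjusted threshold. The highest of each came without ND replicate 2, which leaves ND replicate 1 alone and assumes it varies like the DPI group. With the replicate number as a block 212 were higher and 134 lower (346). Deviations from the group mean correlated at -0.02 (replicate 1) and 0.04 (replicate 2) between same-numbered libraries. With 2 ND libraries these deviations mirror each other, so the check cannot tell whether the numbers mark a pairing.

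Signs of 12 named genes turned, of which Adrbk1 had passed the threshold. With the block Clec4f was at 0.64, Clec1b 0.67, Itgb3 2.00, Pf4 0.63 and Irg1 -1.22. With single libraries left out, the range was -0.51 to 0.74 for Arrb2, -3.34 to 8.11 for Clec4f, -2.78 to 3.57 for Clec1b, -1.50 to 8.12 for Itgb3, -0.81 to 1.05 for Pf4, -1.17 to 0.092 for Fn1, -1.55 to 0.21 for Klf4, -0.14 to 1.10 for Rac2, -1.66 to 0.26 for Edem1, -1.04 to 0.30 for Hsp90aa1 and -1.64 to 0.17 for Adrbk1, with an ND library left out at both ends of each. Of 2450 values of named genes under the alternatives, 2155 kept direction and side of the threshold, 180 lost the threshold, 96 gained it and 19 reversed. Genes with fewer than 3 counts in a library are limited by depth.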
